A study of Mus musculus with 6 samples.

Results

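The genes described are 8 stress-response regulators, Atf4, Ddit3, Atf3, Atf5, Trib3, Cebpb, Cebpg and Nupr1, taken by name from a table of 34745 mouse genes. Each name matched 1 gene, and all 8 passed the filter on low counts, which left 12967 genes for testing. RNA-seq was done on CD4 T cells purified as naive cells from spleens of female C57BL/6 mice aged 6 weeks, and no genetic change is given for either group. All cultures were activated on coated anti-CD3 and anti-CD28 for 4 days with IL-6, IL-23, TGF-beta, IL-2 and antibodies that neutralise IFN-gamma and IL-4, a mixture that drives IL-17-producing Th17 cells. The PM2.5 group (3 libraries) received a suspension of fine airborne particles at 100 µg/ml at 6 h of stimulation, and the PBS group (3 libraries) received PBS at that time. Whether the libraries of a group came from separate cultures or animals, or from pooled spleens, is not given. The p-values thus cover the scatter among 6 libraries, and that scatter may be technical.

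ATF4 is the central transcription factor of the integrated stress response. Kinases that sense amino acid shortage, misfolded protein in the endoplasmic reticulum, haem shortage or viral RNA phosphorylate the initiation factor eIF2 alpha, which slows translation in general but favours translation of the Atf4 mRNA. ATF4 then binds DNA as a dimer with C/EBP proteins at composite C/EBP-ATF response elements and activates genes of amino acid uptake, amino acid synthesis and tRNA charging, along with further regulators such as CHOP (encoded by Ddit3), ATF3 and TRIB3. In T cells this programme is known for supporting the amino acid supply of activated cells. Only mRNA was measured here, so protein amounts and eIF2 alpha phosphorylation are not described.

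Libraries held 25397965 to 27215853 counts in the PM2.5 group and 19511561 to 22353131 counts in the PBS group, so every PM2.5 library was the deeper. A count of 0 in a library allows up to 0.110 to 0.154 CPM (counts scaled to library size), a floor of 3 counts that covers counting error only. The 7 CD4 T cell markers summed to 2795 to 2835 CPM in the PM2.5 group and 3272 to 3301 CPM in the PBS group, and the 6 Th17 markers to 2562 to 3035 CPM and 3574 to 3621 CPM in the same order. Cebpb and Atf3 are also abundant in myeloid cells. The 7 macrophage and monocyte markers (6 with counts) summed to 3.05 to 3.52 CPM in the PM2.5 group and 5.68 to 7.13 CPM in the PBS group, with Lyz2 at 0 in all 6 libraries. The 5 neutrophil markers (2 with counts) summed to 0.551 to 0.689 CPM and 5.28 to 6.27 CPM in the same order, with S100a8, S100a9 and Elane at 0 throughout. In the PM2.5 group against the PBS group, B cell markers (0.236 to 0.441 CPM against 1.03 to 1.70 CPM), dendritic cell markers (0.191 to 0.394 CPM against 0.564 to 0.671 CPM), NK cell markers (5.95 to 7.35 CPM against 9.84 to 13.0 CPM) and CD8 markers (8.86 to 9.80 CPM against 10.2 to 11.5 CPM) were also lower in sum, and no erythroid marker had a count. Single markers went the other way. Eomes of the NK list had 0.951 ± 0.171 CPM in the PM2.5 group and 0.0770 ± 0.0223 CPM in the PBS group, Cd8b1 of the CD8 list 5.96 ± 0.678 CPM and 4.25 ± 0.286 CPM, and Cd28 of the CD4 list 671 ± 14.5 CPM and 465 ± 15.2 CPM in the same order (SD, n = 3 each). Cd5 and Cd14 also had the higher mean in the PM2.5 group. So did Fcgr1, Mpo, Xcr1 and Klrb1c, each with at most 2 counts in any library. Ms4a1 of B cells, Siglech and Clec9a of dendritic cells and Ncr1 of NK cells were at 0 in all libraries. The part of other cell types in the results was not tested.

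All 8 genes rose in the PM2.5 group, by 2.89-fold (Cebpb) to 27.6-fold (Trib3), with a median of 9.05-fold (3.18 on the log2 scale, against -0.01 for all genes tested). The calls are those of edgeR's quasi-likelihood test at a Benjamini-Hochberg adjusted p of 0.05, under which 70.6% of all genes tested differed between the groups and 35.2% were higher in the PM2.5 group. At least 2-fold rises were found for 8 of 8 genes, against 6.51% of all genes tested, and at least 4-fold rises for 6 of 8, against 1.70%. The 8 genes were chosen with earlier results of these data known, so these counts are a description only. For each of the 8, every PM2.5 library lay above every PBS library, as was so for 37.4% of all genes tested, while 74.9% had groups apart in either direction. In RNA from whole cultures, more cells expressing a gene and more RNA per cell cannot be told apart.

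**Figure D1:**
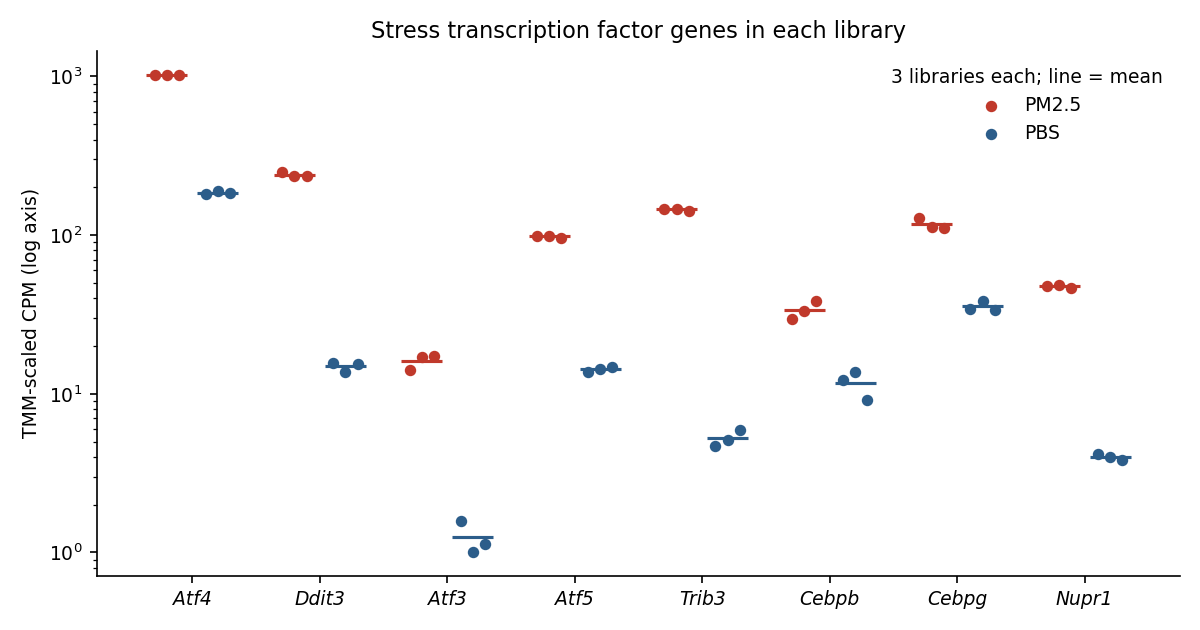
Level of the 8 genes in each library in TMM-scaled CPM on a log axis, with PM2.5 libraries in red on the left of each gene, PBS libraries in blue on the right and a line at each group's mean. In every gene the PM2.5 libraries lie above the PBS libraries, with the widest gap for Trib3 (means of 145 CPM in PM2.5 and 5.25 CPM in PBS) and the narrowest for Cebpb (33.7 CPM in PM2.5 and 11.7 CPM in PBS).

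Atf4 (ENSMUSG00000042406, mm10 chromosome 15, 80255184 to 80257540, plus strand) had 1021, 1026 and 1021 CPM in the PM2.5 libraries, against 181, 189 and 183 CPM in the PBS libraries. The 3 PM2.5 libraries were nearly level, with a coefficient of variation of 0.316%, below the 0.617% that counting error alone would give. The rise was 5.54-fold (log2 fold change 2.47, SE 0.03, edgeR adjusted p = 3.15e-12). By FPKM, which divides counts by gene length, Atf4 was the 43rd most abundant of the 12967 genes in the PM2.5 group and the 303rd in the PBS group.

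Atf5 (ENSMUSG00000038539, chromosome 7, 44812256 to 44816599, minus strand) encodes the closest relative of ATF4, whose translation is also favoured when eIF2 alpha is phosphorylated. It had 99.1, 99.3 and 96.2 CPM in the PM2.5 libraries, against 13.8, 14.3 and 14.7 CPM in the PBS libraries. No library stood apart from its group, and the rise was 6.88-fold (log2 2.78, SE 0.05, edgeR adjusted p = 1.49e-11). Its 5′ end lies opposite Il4i1 over 213 bases and opposite Nup62 over 512 bases. Il4i1 itself had 8018, 7304 and 7126 counts in the PM2.5 libraries, against 4274, 3630 and 4204 counts in the PBS libraries.

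Cebpg (ENSMUSG00000056216, chromosome 7, 35046422 to 35056573, minus strand) encodes a small C/EBP protein without an activation domain that pairs with ATF4 on its response elements. It had 129, 113 and 111 CPM in the PM2.5 libraries, against 34.1, 38.7 and 33.9 CPM in the PBS libraries. One library of each group, PM2.5 replicate 1 and PBS replicate 2, lay above the others of its group. The rise was 3.32-fold (log2 1.73, SE 0.08, edgeR adjusted p = 9.85e-08). Among the 8 genes only Cebpb rose less in this fit.

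Ddit3 (ENSMUSG00000025408, chromosome 10, 127290774 to 127296288, plus strand) encodes CHOP, a C/EBP relative that ATF4 induces and that is known for promoting cell death when stress persists. It had 248, 237 and 236 CPM in the PM2.5 libraries, against 15.7, 13.8 and 15.5 CPM in the PBS libraries. The rise was 16-fold (log2 4.00, SE 0.05, edgeR adjusted p = 4.33e-12), and by FPKM the gene moved to the 327th place in the PM2.5 group, against the 5752nd in the PBS group. These places depend on the length behind the FPKM, 2301 bases, against 1713 bases of annotated exons joined in GENCODE M21. The last 68 bases of Ddit3 lie opposite the end of Mars, the methionyl-tRNA synthetase gene. Mars had 6098, 5972 and 5473 counts in the PM2.5 libraries and 2665, 2115 and 2575 counts in the PBS libraries. GENCODE M21 also lists a second gene named Ddit3 inside the Ddit3 gene described here, on the same strand, with no entry of its own in the deposited table. The strand setting of the counting is not given in the sources used here, so reads of such overlaps cannot be assigned with certainty.

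Cebpb (ENSMUSG00000056501, chromosome 2, 167688915 to 167690418, plus strand) encodes C/EBP beta, a partner of both ATF4 and CHOP that also drives cytokine genes. It had 29.6, 33.3 and 38.3 CPM in the PM2.5 libraries, against 12.2, 13.8 and 9.10 CPM in the PBS libraries. This was the smallest rise of the 8, 2.89-fold (log2 1.53, SE 0.17, edgeR adjusted p = 0.000288), with a coefficient of variation of 13.0% in the PM2.5 group and 20.3% in the PBS group, against 3.40% and 6.29% from counting error. The gene body of Tmem189, on the opposite strand, covers 908 of its bases, so Cebpb counts may include Tmem189 reads. Tmem189 had 1309, 1300 and 1228 counts in the PM2.5 libraries and 973, 952 and 1029 counts in the PBS libraries, against 787, 849 and 952 counts and 276, 273 and 209 counts for Cebpb in the same order.

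Trib3 (ENSMUSG00000032715, chromosome 2, 152337422 to 152344032, minus strand) encodes a pseudokinase that ATF4 and CHOP induce and that binds ATF4 and restrains its activity. It had 146, 147 and 142 CPM in the PM2.5 libraries, against 4.68, 5.14 and 5.92 CPM in the PBS libraries. The rise of 27.6-fold (log2 4.79, SE 0.07, edgeR adjusted p = 7.8e-12) was the 28th largest of all genes tested. Of the 8 genes, none had a larger fold change.

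Atf3 (ENSMUSG00000026628, chromosome 1, 191170296 to 191218039, minus strand) encodes a stress-induced factor that can repress transcription as a homodimer. It had 14.2, 17.1 and 17.2 CPM in the PM2.5 libraries, against 1.59, 1.01 and 1.13 CPM in the PBS libraries. The PBS values rest on 36, 20 and 26 counts, and their coefficient of variation of 24.7% is close to the 19.1% that counting error gives. The rise was 12.9-fold (log2 3.69, SE 0.16, edgeR adjusted p = 8.74e-09). On log2(FPKM + 1), which draws low values together, it came to 2.26 on the log2 scale.

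Nupr1 (ENSMUSG00000030717, chromosome 7, 126623249 to 126630861, minus strand) encodes a small, largely unstructured nuclear protein that takes part in the response to many stresses. It had 48.1, 48.5 and 46.6 CPM in the PM2.5 libraries, against 4.2, 3.98 and 3.83 CPM in the PBS libraries. Within each group the 3 libraries agree within counting error, at coefficients of variation of 2.14% and 4.61% against 2.86% and 10.7% from counting alone. The rise was 11.9-fold (log2 3.57, SE 0.07, edgeR adjusted p = 2.94e-11), and 2.49 on the scale of log2(FPKM + 1).

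Promoter sequence was read for the 8 genes because ATF4 dimers are known to act through a composite element whose core is written here as TGATGNAA. RefSeq's windows of 250 bases before the start site (GRCm38.p6) were found for all 8 genes, 9 windows in all. They were searched on both strands for exact matches. Sites that differ from a motif in any fixed letter, or that lie outside these windows, were not counted. The core was present in 2 of the 8 genes, Atf3 and Nupr1, against 3.91% of 27025 genes with such a window. In both it read TTGCATCA on the gene's strand, from 110 to 103 bases before the start. Atf3 also held TTACGTCA, from 10 to 3 bases before the start. It matches TNACGTCA, a pattern like the cyclic AMP response element that ATF and CREB dimers bind, and 2.92% of genes held this pattern. The endoplasmic reticulum stress element (CCAAT, 9 bases of any kind, CCACG) had no exact match in the 8 and had one in 0.13% of genes. Near matches to this element, such as cgtgccgctttctgattgg in the Ddit3 window printed below, were not counted. These motifs did not overlap one another in the windows of the 8 genes. The first pair of sequences shows these matches in capitals. The second pair gives the windows of the genes with the largest rises, Trib3 and Ddit3. Neither of these held an exact match to any of the 3 motifs. Near matches to the core, such as tggtgcaa in the Trib3 window, were not counted either. Bases farther from the start were not searched. Whether these genes have such an element is thus not settled here. All run 5′ to 3′ on the gene's strand. The RefSeq starts of Atf3 and Nupr1 lie inside the longer gene models of the deposited table.
Atf3, chr1:191183334-191183583, minus strand: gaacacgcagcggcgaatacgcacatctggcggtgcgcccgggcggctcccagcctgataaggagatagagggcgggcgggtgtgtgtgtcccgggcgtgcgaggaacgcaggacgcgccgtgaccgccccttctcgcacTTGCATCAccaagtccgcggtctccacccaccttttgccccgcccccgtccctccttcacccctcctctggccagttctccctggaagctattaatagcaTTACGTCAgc
Nupr1, chr7:126625471-126625720, minus strand: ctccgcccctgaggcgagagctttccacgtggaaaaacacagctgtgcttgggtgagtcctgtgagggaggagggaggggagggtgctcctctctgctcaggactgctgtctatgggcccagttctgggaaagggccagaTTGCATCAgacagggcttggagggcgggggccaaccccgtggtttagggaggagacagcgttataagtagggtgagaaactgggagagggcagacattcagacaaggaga
Trib3, chr2:152344061-152344310, minus strand: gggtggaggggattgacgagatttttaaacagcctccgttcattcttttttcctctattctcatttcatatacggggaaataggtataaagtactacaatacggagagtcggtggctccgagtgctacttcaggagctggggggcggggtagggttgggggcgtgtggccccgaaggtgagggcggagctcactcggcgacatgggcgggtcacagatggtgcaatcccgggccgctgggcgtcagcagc
Ddit3, chr10:127290543-127290792, plus strand: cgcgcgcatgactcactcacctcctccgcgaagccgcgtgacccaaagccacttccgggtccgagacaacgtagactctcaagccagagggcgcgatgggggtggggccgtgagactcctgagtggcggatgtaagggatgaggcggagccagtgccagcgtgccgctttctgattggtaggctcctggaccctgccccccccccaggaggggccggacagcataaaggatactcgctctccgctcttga

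The same core was sought before 25 of the 34 listed target genes of ATF4 and CHOP, those with a RefSeq window, and was found in 8 of them. That list was drawn up from known targets, some of which are known for this element, so the share is a description only. Stretches of 30 bases centred on the core were turned so that it reads TGATGNAA in capitals. They show how the sites of the regulators and of 4 of these targets compare. Atf3, Nupr1, Chac1 and Slc7a11 share TGATGCAA, while Pck2 has TGATGTAA and Asns TGATGAAA, and the flanking bases differ. Among the targets not shown, named here for their sites only, Aars, Fgf21 and Vldlr also have TGATGCAA. Gars has TGATGAAA, as Asns does. Slc7a11 holds 2 such sites in its window, of which the one farther from the start is shown. A match is a description of letters in this window and not evidence of binding.
Atf3: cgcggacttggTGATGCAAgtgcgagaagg
Nupr1: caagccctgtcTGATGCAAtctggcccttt
Chac1: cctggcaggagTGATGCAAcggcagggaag
Slc7a11: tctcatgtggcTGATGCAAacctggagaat
Pck2: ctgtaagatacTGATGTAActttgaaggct
Asns: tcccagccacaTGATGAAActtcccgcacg

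Per length, the order of the 8 genes differed between the groups. In deposited FPKM the PM2.5 group ran from Atf4 (579.9 ± 1.66) through Ddit3 (102 ± 3.02), Trib3 (44.8 ± 0.896), Atf5 (30.0 ± 0.511), Cebpb (21.9 ± 2.86), Cebpg (15.1 ± 1.28) and Nupr1 (9.16 ± 0.194) to Atf3 (6.16 ± 0.658; SD, n = 3). No 2 neighbours in that order had overlapping libraries. The PBS group ran from Atf4 (109 ± 2.04) through Cebpb (7.93 ± 1.57), Ddit3 (6.66 ± 0.480), Cebpg (4.77 ± 0.345), Atf5 (4.56 ± 0.157), Trib3 (1.69 ± 0.208) and Nupr1 (0.803 ± 0.0352) to Atf3 (0.496 ± 0.123; SD, n = 3). There the libraries of Cebpb and Ddit3 overlapped, as did those of Cebpg and Atf5, so those pairs do not differ beyond their spread. Trib3 stood in place 3 in the PM2.5 group and in place 6 in the PBS group.

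The length behind a gene's FPKM matters for such an order. For 6 of the 8 genes it was longer than all annotated exons of the gene joined in GENCODE M21, for example 2301 against 1713 bases for Ddit3 and 5098 against 2514 bases for Nupr1. With CPM on library totals per kilobase of the longest annotated transcript, a scale chosen after seeing the data, Ddit3 was second in both groups, at 242 ± 7.18 in the PM2.5 group and 15.8 ± 1.14 in the PBS group. On that scale Cebpg and Cebpb overlapped in both groups, and Nupr1 (19.1 ± 0.404) came up to Cebpb (21.9 ± 2.86) in the PM2.5 group. Atf4 stayed first and Atf3 last in both groups on both scales.

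**Figure D2:**
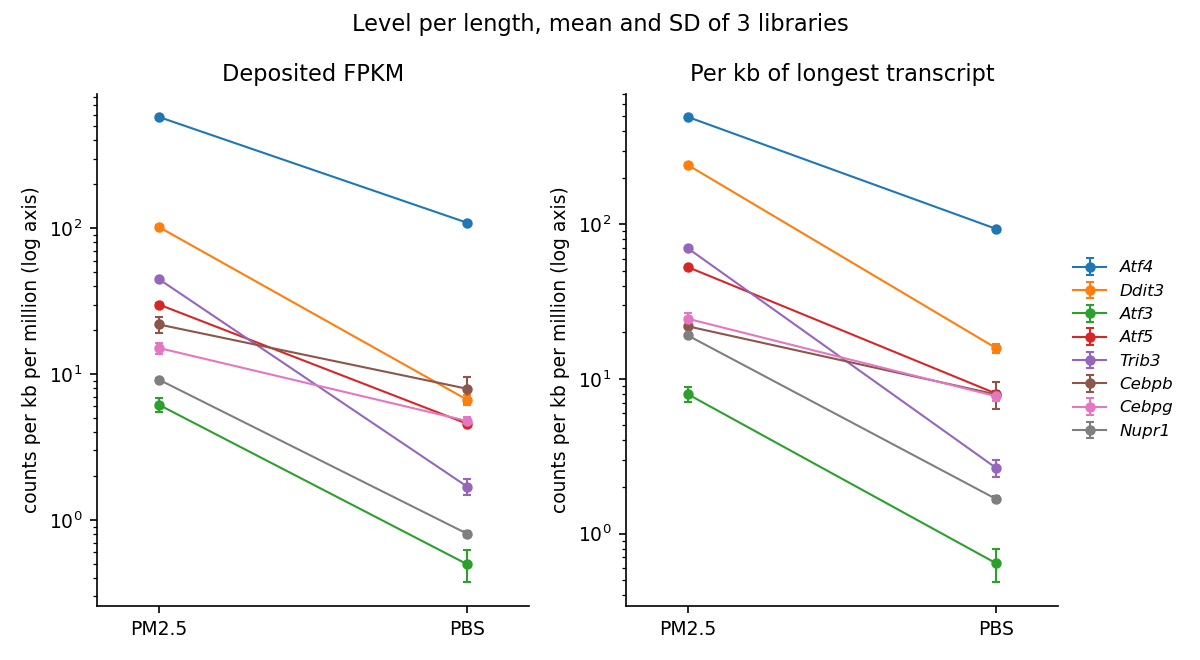
Level per length of the 8 genes on log axes, as the mean of 3 libraries with SD bars, PM2.5 left and PBS right. The left panel uses the deposited FPKM and the right panel the longest GENCODE M21 transcript. The lines of Trib3 and Ddit3 are the steepest, and Ddit3 crosses Cebpb in the left panel only.

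The genes did not rise in equal proportion to Atf4. The ratio of Ddit3 to Atf4 in FPKM was 0.182, 0.173 and 0.173 in the PM2.5 libraries, against 0.0648, 0.0547 and 0.0631 in the PBS libraries, a log2 difference of 1.53 (SE 0.08). Trib3 over Atf4 was 0.0772 ± 0.00142 in the PM2.5 group and 0.0155 ± 0.00184 in the PBS group (SD, n = 3), a 5.01-fold shift. Atf5 over Atf4 moved least of the ratios to Atf4, 1.24-fold, from group means of 0.0518 ± 0.00081 in PM2.5 and 0.0417 ± 0.00136 in PBS. For each of these 3 ratios the groups did not overlap. Of the 7 ratios compared, 5 gave an exact two-sided permutation p of 0.1, the smallest that 3 libraries against 3 allow, and 0.140 after adjustment over the 7, so none can pass 0.05 in this design.

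Among the C/EBP relatives the balance moved towards Ddit3. Ddit3 over Cebpb was 5.49, 4.65 and 4.02 in the PM2.5 libraries, against 0.841, 0.656 and 1.11 in the PBS libraries, and Ddit3 over Cebpg was 6.77 ± 0.356 and 1.41 ± 0.194 (SD, n = 3 each) in the same order. Ddit3 made up 74.3, 73.2 and 71.5% of the summed FPKM of Cebpa, Cebpb, Cebpd, Cebpe, Cebpg and Ddit3 in the PM2.5 libraries, against 30.9, 26.4 and 34.7% in the PBS libraries. Cebpb held 15.7 ± 2.14% in the PM2.5 group and 36.1 ± 4.56% in the PBS group. Cebpg held 10.8 ± 0.771% and 21.9 ± 1.41% (SD, n = 3 each) in the same order. Both genes rose, by less than Ddit3. These shares depend on the lengths used. Within the sum of Ddit3, Cebpb and Cebpg alone, Ddit3 held 73.4 ± 1.41% in PM2.5 and 34.6 ± 4.70% in PBS on FPKM, but 83.9 ± 0.655% and 50.3 ± 4.86% per longest transcript. Cebpb held 15.8 ± 2.14% and 40.7 ± 5.12% of that sum on FPKM, but 7.61 ± 1.12% and 25.1 ± 4.13% per longest transcript, in the same order (SD, n = 3 each). On both scales the share of Ddit3 was higher, and that of Cebpb lower, in every PM2.5 library than in every PBS library. On the scale of the longest transcript, Ddit3 over Cebpb was 11.2 ± 1.75 in PM2.5 and 2.06 ± 0.542 in PBS. Whether Cebpb or Ddit3 was the more abundant in the PBS group thus depends on the length used. The fold shift of this ratio between the groups cannot depend on it, since a fixed length per gene cancels there.

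**Figure D3:**
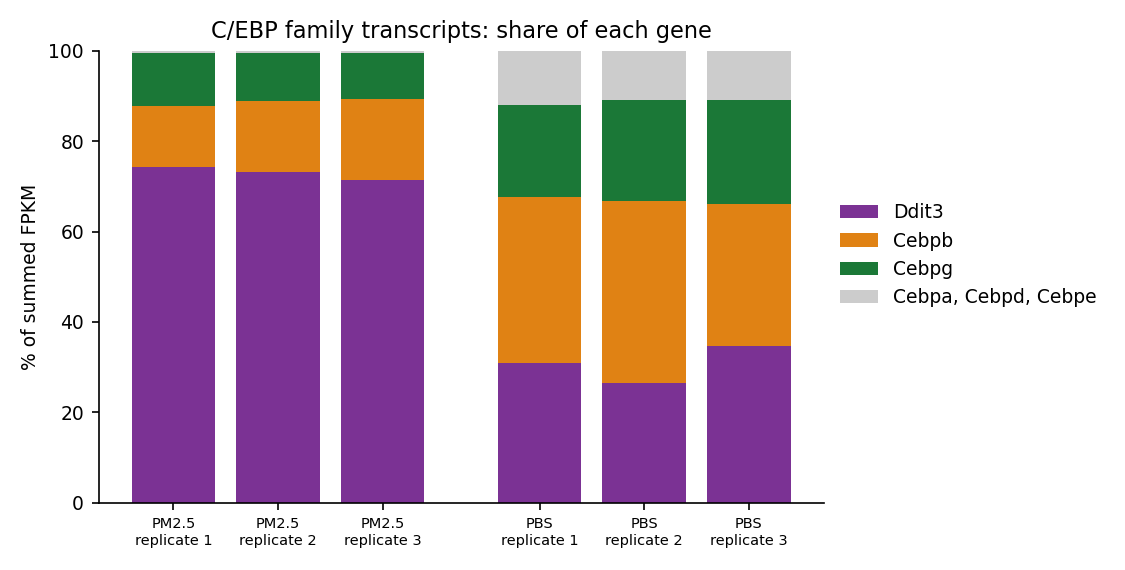
Share of each gene in the summed FPKM of Cebpa, Cebpb, Cebpd, Cebpe, Cebpg and Ddit3, in percent, with 1 bar per library, PM2.5 left and PBS right, on the lengths behind the deposited FPKM. Ddit3 holds 71.5 to 74.3% in the PM2.5 libraries and 26.4 to 34.7% in the PBS libraries.

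For the remaining pairs the groups overlapped. Cebpb over Cebpg was 1.16, 1.49 and 1.75 in the PM2.5 libraries and 1.81, 1.80 and 1.36 in the PBS libraries (log2 difference -0.19, SE 0.22, exact permutation p = 0.500, adjusted 0.500). Atf3 over Ddit3 was 0.0606 ± 0.00811 in the PM2.5 group and 0.0741 ± 0.0147 in the PBS group (log2 difference -0.28, SE 0.20, exact permutation p = 0.200, adjusted 0.233, n = 3 each). Neither difference exceeded the spread between libraries. On log2(FPKM + 0.1) Atf3 over Ddit3 differed by -0.51, with an exact permutation p of 0.1, and without PBS replicate 1 by -0.13 on log2 FPKM. Without PM2.5 replicate 1, Cebpb over Cebpg differed by -0.03.

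Known target genes of ATF4 and CHOP rose with the regulators. Of 34 listed, none of them among the 8, 31 were tested, 30 rose and 1 fell, against 35.2% higher and 35.3% lower among all genes tested. The median log2 fold change of those tested was 2.26, against -0.01. This list and the lists below were chosen with earlier results of these data known, so their counts are a description only. Pck2, the mitochondrial enzyme that makes phosphoenolpyruvate, had 224 ± 3.02 CPM in the PM2.5 group and 9.35 ± 0.564 CPM in the PBS group (SD, n = 3 each; 24.0-fold). The amino acid transporter genes Slc7a5 (7.84-fold) and Slc7a1 (4.91-fold), the asparaginyl-tRNA synthetase gene Nars (4.89-fold) and the asparagine synthetase gene Asns (9.05-fold) rose as well. Chac1, which encodes a glutathione-degrading enzyme, had 75.5 ± 2.26 CPM in the PM2.5 group and 0.757 ± 0.137 CPM in the PBS group (SD, n = 3 each; 98.3-fold). Bcl2l11, which encodes the death-promoting protein BIM and is induced by CHOP in some cells, fell, with 17.7, 16.6 and 20.8 CPM in the PM2.5 libraries against 30.8, 33.5 and 25.3 CPM in the PBS libraries (log2 -0.70, SE 0.12, edgeR adjusted p = 0.00114). Gdf15, Fgf21 and Cbs were below the filter.

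**Figure D4:**
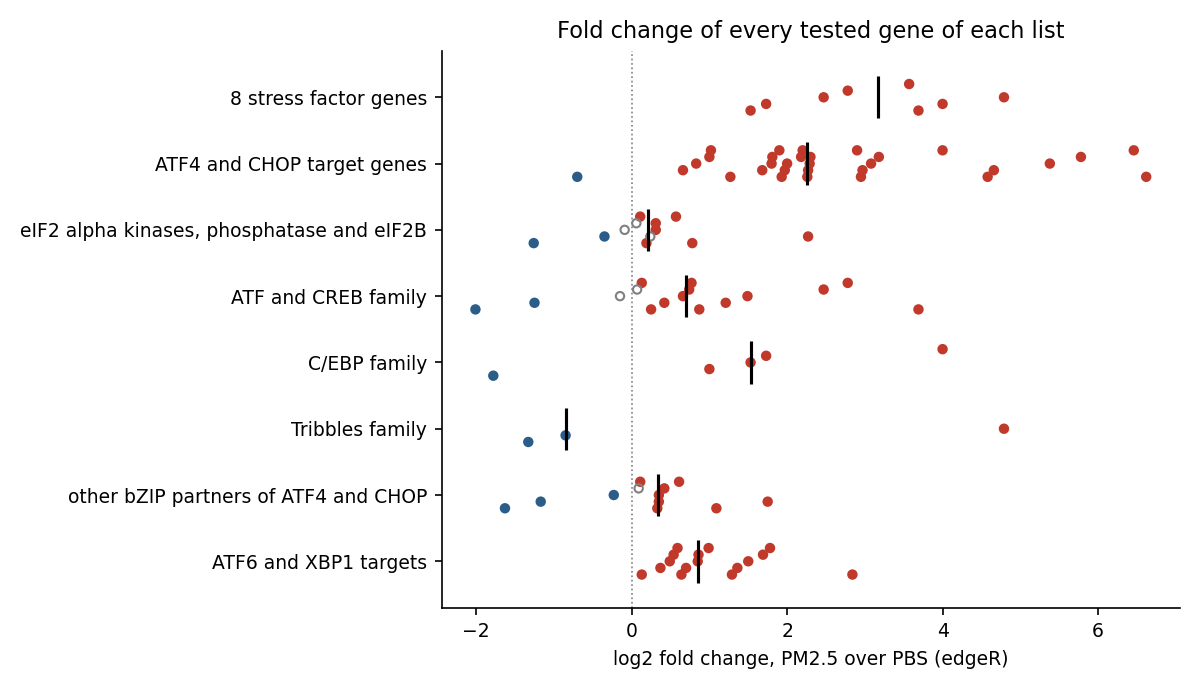
Log2 fold change of PM2.5 over PBS for every tested gene of each list, 1 point per gene, with a black bar at each list's median. Red points rose, blue points fell and open grey points did not pass. All 8 stress factor genes lie between 1.53 and 4.79, and of the 31 target genes 1 lies below 0.

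Of 13 other tested genes of the ATF and CREB family 9 rose and 2 fell, with a median of 0.42, where 35.2% of all genes tested were higher and 35.3% lower. Small changes carry part of that count. Atf1 (log2 0.13) lost its call in 10 of 14 alternatives and Creb1 (log2 0.42) in 4, both named after their values were seen. With Atf3, Atf4 and Atf5 included, 10 to 12 of the family rose in the alternatives, against 12 in the fit reported. Atf6, which encodes a factor released by endoplasmic reticulum stress, had 244 ± 3.21 CPM in the PM2.5 group and 86.9 ± 4.25 CPM in the PBS group (SD, n = 3 each), and Creb3 (2.32-fold) and Atf2 (1.82-fold) rose less than Atf6 (2.80-fold). Batf3, a factor of dendritic and T cells, fell to 0.391 ± 0.107 CPM, against 1.58 ± 0.345 CPM in the PBS group, and Creb3l1 fell to 0.349 ± 0.0936 CPM, against 0.852 ± 0.230 CPM (SD, n = 3 each). Creb3l1 did not pass with DESeq2. Atf4 alone made up 65.0 ± 0.450% of the family's summed FPKM in the PM2.5 group and 31.8 ± 0.852% in the PBS group.

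In the C/EBP family, Cebpd, an inflammation-induced member, fell (0.831 ± 0.0566 CPM in the PM2.5 group and 2.86 ± 0.311 CPM in the PBS group, SD, n = 3 each). Cebpz, which bears the name but is no leucine zipper factor, rose 2.00-fold. Cebpa was below the filter, and Cebpe had no count. The other Tribbles pseudokinase genes fell while Trib3 rose. Trib1 had 8.68, 8.23 and 7.77 CPM in the PM2.5 libraries, against 21.5, 21.4 and 19.0 CPM in the PBS libraries (log2 -1.33, SE 0.08, edgeR adjusted p = 1.49e-07). Trib2 had 55.6, 53.9 and 54.8 CPM, against 99.1, 102 and 95.2 CPM in the PBS libraries (log2 -0.85, SE 0.04, edgeR adjusted p = 2.37e-08).

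Of the 12 tested genes among 14 further leucine zipper factors that can pair with ATF4 or CHOP, 8 rose and 3 fell, with a median of 0.34, where 35.2% of all genes tested were higher and 35.3% lower. Nfe2l1, which encodes a factor of proteasome gene expression, rose 3.36-fold, and Nfe2l2, which encodes the oxidant-responsive factor NRF2, rose 1.27-fold, as did Junb (log2 0.42) and the low-level gene Fosb (log2 1.09). Maf, a Th17 and follicular helper factor gene, fell to 266 ± 2.93 CPM in the PM2.5 group, against 821 ± 12.6 CPM in the PBS group (SD, n = 3 each). Jun (log2 -1.17) and Fosl2 (log2 -0.23) fell as well.

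Among the genes that act upstream of ATF4, the list holds 12 genes of eIF2 alpha kinases, phosphatase subunits, eIF2 alpha and eIF2B, of which 7 rose and 2 fell, at a median of 0.21. These 9 calls among 12 genes are near the 70.6% called among all genes tested, so the count says nothing particular to the list. With library totals in place of TMM, 5 rose and 3 fell. Ppp1r15b, the constitutive phosphatase subunit gene (log2 0.57), and Eif2b3, a subunit of the exchange factor eIF2B (log2 0.78), were among those that rose, with Eif2s1 and Eif2b5 (log2 0.31 each). Eif2ak2, the kinase gene of the response to double-stranded RNA, fell (log2 -1.26, SE 0.06), as did Eif2ak4, which encodes the amino acid sensor GCN2 (log2 -0.35, SE 0.04). The other kinases are named after their values were seen. Eif2ak3, which encodes PERK of the endoplasmic reticulum, had 126 ± 6.31 CPM in the PM2.5 group and 121 ± 1.54 CPM in the PBS group (SD, n = 3 each; edgeR adjusted p = 0.215), and its sign changed under 3 of 14 alternatives. Eif2ak1, the haem-regulated kinase gene, stood at a log2 fold change of 0.11 and lost its call under 8 of 14 alternatives, library totals in place of TMM among them. Ppp1r15a, a gene of this list and of the target list, also named after its values were seen, encodes the stress-induced phosphatase subunit GADD34 and rose 4.83-fold, with 109, 116 and 186 CPM in the PM2.5 libraries against 33.0, 20.5 and 31.3 CPM in the PBS libraries.

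Genes of the ATF6 and XBP1 branches of the unfolded protein response, which act beside ATF4 in endoplasmic reticulum stress, all rose, 16 of 16, with a median of 0.85, against 35.2% higher and a median of -0.01 among all genes tested. Of the 16, Dnajc3 (log2 0.13) lost its call in 4 of 14 alternatives, library totals in place of TMM among them. Herpud1 of the degradation machinery (log2 2.84), which ATF4 can also induce, and the chaperone genes Dnajb9 (1.78) and Hspa5 (1.69) rose more than Syvn1 (1.29), Xbp1 (0.99) and Pdia6 (0.85). The log2 fold change of Herpud1 lay below those of Trib3, Ddit3, Atf3 and Nupr1 and above those of Atf5 (2.78), Atf4 (2.47), Cebpg (1.73) and Cebpb (1.53), and that of Dnajb9 was also above the values of Cebpg and Cebpb.

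Other genes followed similar profiles over the 6 libraries. Likeness was measured as the Euclidean distance between log2 CPM profiles, each centred on its own mean, among 9912 other genes averaging 5 CPM or more. The nearest to Atf4 were Nfkbid, which encodes a nuclear regulator of NF-kB (distance 0.07, 272 ± 2.92 CPM in PM2.5 and 49.9 ± 0.574 CPM in PBS), the activation marker Cd69 (0.14), Sec23a of the vesicle coat (0.14) and Tnfsf8, the gene of CD30 ligand (0.17). The nearest to Ddit3 were Cd200 (0.31), Cd83 (0.32), Zbtb10 (0.38) and Idi2 (0.41), and those to Cebpb were Znhit6 (0.33), Blzf1 (0.34), Ctage5 (0.36) and Tnfaip3 (0.38). The log2 fold changes of these neighbours were 2.45 to 2.57 for Atf4, 3.85 to 4.15 for Ddit3 and 1.45 to 1.58 for Cebpb.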

How the data were processed

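Messenger RNA was sequenced in 6 libraries and 1 table was deposited, which per the file headers holds raw counts and FPKM of every library by Ensembl gene. The submitters' processing notes name TopHat2 2.0.6 and mm10. The counting program, annotation and strand setting: not given in the sources used here. The authors' FPKM equal the deposited count over the library total and 1 fixed length per gene, to within 0.00086% for 9540 genes with over 100 counts in every library.

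Genes kept by filterByExpr (minimum count 10, minimum total 15; 99.9% of counts) were compared between PM2.5 and PBS in edgeR 4.0.16 (R 4.3.3), using TMM, robust glmQLFit and the quasi-likelihood test (two-sided), with Benjamini-Hochberg adjustment over 12967 genes. SE is the size of the log2 fold change divided by the root of the F statistic. CPM are TMM-scaled, except for marker sums, values of single markers, the floor and values per longest transcript, which use library totals. The script was tested on simulated data. Replicates differed by a chi-square of 7.57 to 9.89 per degree of freedom over genes, so each was kept as 1 sample. Ratios used FPKM and an exact permutation test. Motifs were searched in RefSeq promoter windows (GRCm38.p6). The 8 genes, the 7 lists and the markers were chosen with earlier results of these data known. From each list, up to 6 genes with the smallest adjusted p and those that moved against the list's majority are named, and others are marked. Alternatives were DESeq2 1.42.0, limma 3.58.1 on log2 FPKM, other filters and scaling, a replicate block and leaving out each library.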

Additional observations from a re-analysis of the deposited data

How the results depend on the processing

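All 8 genes kept their direction and passed an adjusted p of 0.05 in each of the 14 alternatives, which were library totals in place of TMM, DESeq2, no filter, a filter at 5 CPM, fitting without robust estimation, limma on log2(FPKM + 1) and log2(FPKM + 0.1), the replicate block and leaving out each of the 6 libraries. The largest adjusted p for any of the 8 was 0.00612, for Cebpb with the replicate block. With 1 library left out, Cebpb ranged from 1.38 to 1.66 and Atf3 from 3.56 to 3.90 on the log2 scale. Over all genes, 7587 to 9582 passed in the alternatives, and 9149 in the fit reported. The replicate block gave 9002 genes and changed no call among the 8. Deviations of libraries with the same number correlated at 0.01, 0.01 and 0.05, which gives no sign that the numbers pair the libraries. A small effect of pairing would not be seen in this way. Library totals in place of TMM moved the median of all genes by -0.064 on the log2 scale, and gave 4053 genes higher and 5081 lower, against 4567 and 4582 in the fit reported. Calls of small changes in the lists, such as Atf1, Jund, Eif2ak1, Eif2b1, Eif2b2 and Dnajc3, changed with that scaling. Of the listed targets 30 or 31 rose in each alternative. The ratio of Cebpb to Cebpg ranged from -0.32 to -0.03 (log2 difference) with 1 library left out, and that of Atf3 to Ddit3 from -0.36 to -0.13. The few counts of Atf3 in the PBS group limit the precision of its fold change.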
